A study of Caenorhabditis elegans with 6 samples.

Results

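The histone genes of *Caenorhabditis elegans* described here were the 72 rows of the deposited expression table whose symbol was "his-" followed by a number, out of 46778 rows. By the protein named in the table's own description of each row, they comprised 1 gene for the linker histone H1 (his-24), 17 for H2A, 16 for H2B, 20 for H3 and 16 for H4. The H3 genes were 15 for canonical H3 and 5 for H3.3 or H3.3-like proteins (his-69, his-70, his-71, his-72 and his-74). The descriptions of his-39 and his-73 gave no class, and both are counted among the 72 but in no class.

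Histones H2A, H2B, H3 and H4 form the octamer that DNA is wrapped around, and H1 binds where the DNA enters and leaves it. In animals most core histone genes lack introns, are transcribed during S phase, and give mRNAs that end in a stem-loop rather than a poly(A) tail. Replacement variants such as H3.3 and H2A.Z are made outside S phase as well, from genes with introns and polyadenylated mRNAs. In *C. elegans* the intronless genes lie in small clusters as head-to-head pairs, and in the adult the dividing cells are those of the germ line.

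RNA-seq was done on 3 libraries labelled JM03 and 3 labelled control, with replicates numbered 1 to 3 in each group. JM03 is named in the title of the series as a crotamiton derivative, and that title concerns lifespan, stress resistance and the TRPV channel protein OSM-9. Strain, age, the dose of JM03 and how long it was given are not stated in the labels, and neither is the make-up of the control treatment nor whether RNA with poly(A) tails was selected. Nothing in the labels says that replicates were grown apart, and p-values then describe only the spread among these samples, which may be technical.

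Values were in TPM, each gene's share of a library's transcripts after division by transcript length, so the number of reads behind a value is unknown. Where 3 or more libraries held 1 TPM or more, the gene was compared between groups on the log2(TPM + 1) scale with limma, and calls were made below 0.05 after Benjamini-Hochberg adjustment over all 12912 genes tested. Of the 72 histone genes, 49 passed that filter. Of the other 23, 20 were above 0 in some library and 3 (his-9, his-16 and his-39) were listed at 0 in all 6. The highest value of an untested member was 6.12 TPM, for the H3 gene his-13 in JM03 replicate 2. A log2 fold change on this scale understates the difference for genes of a few TPM.

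Quite apart from the histone genes, control replicate 3 was unlike the 5 other libraries. It had 16560 genes above 0, against 18049 to 18208 in the others, and 4.37% of its TPM was ribosomal RNA, against 0.338% to 0.639%. Small nuclear and nucleolar RNAs summed to 7663 TPM in it and to 1712 to 2505 TPM elsewhere. The mean length of its coding transcripts, weighted by TPM, was 757 nt, against 1070 to 1116 nt. It was the lowest of the 6 libraries for 64.7% of all tested genes and the highest for 11.8%, and values without it are given below where it moves a result.

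No histone gene was called in the comparison of JM03 with control. Over all tested genes limma called 17, or 0.132%, and at an unadjusted p below 0.05 it gave 2 histone genes higher in JM03 (his-41 and his-25) and 2 lower (his-69 and his-70), in a comparison where 11.7% of all tested genes reached that level. Without control replicate 3 the histone count was again 0 and the share of all genes called was again 0.132%. The smallest adjusted p among the histone genes in limma was 0.306. Since RNA was taken in bulk, fewer cells of a type and less RNA per cell cannot be told apart in any value given here.

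Beside all tested genes, the histone genes had a lower median fold change with all 6 libraries and a higher one without control replicate 3. Their median log2 fold change, JM03 over control, was 0.08, while the median over all tested genes was 0.35, a difference of -0.27. Of the 49, 27 (55.1%) had a positive log2 fold change, against 72.7% of all tested genes. Without control replicate 3 the histone median was 0.22 and that of all genes 0.05, a difference of 0.18, and 39 of 49 were positive, against 7289 of all 12912. These are descriptions of a list whose members partly share reads, and no test of the list was made.

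**Figure D1:**
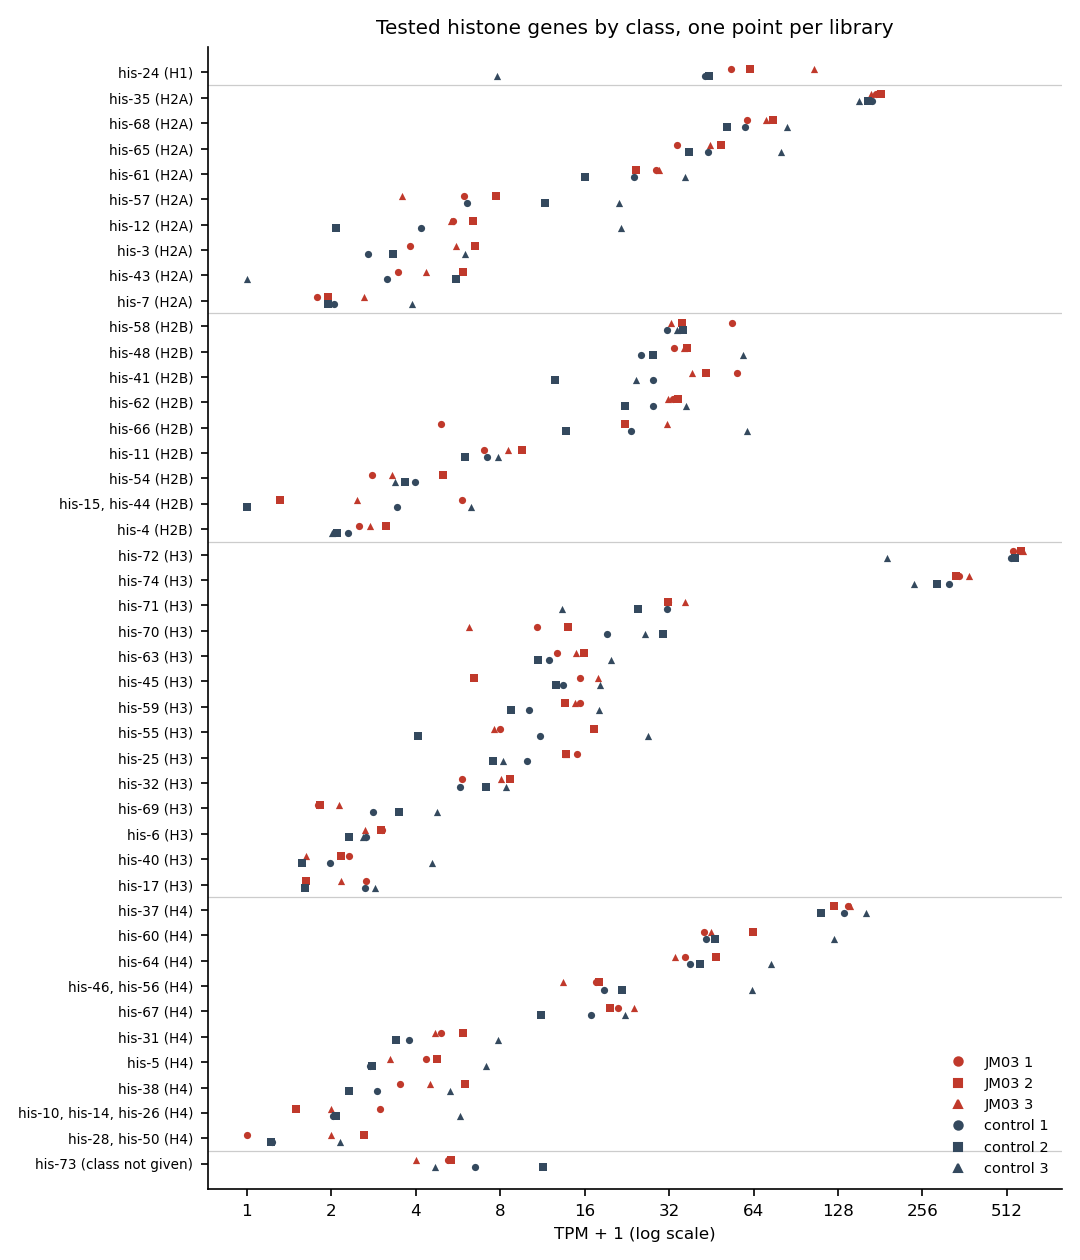
TPM + 1 on a log axis of the 49 tested histone genes, a row per gene or per set of genes with equal values, a point per library, JM03 in red above control in dark blue. Rows are grouped by class, and control replicate 3 (dark triangles) lies at the right end of many H2A, H2B, H3 and H4 rows but at the left for his-24, his-71, his-72 and his-74.

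Near-identical copies limit what a single row means. In 9 sets covering 22 of the 72 genes the deposited values were equal in all 6 libraries to the 2 decimals given, such as the H4 genes his-46 and his-56, both at 16.5, 17.0 and 12.4 TPM in JM03 and 17.7, 20.7 and 62.4 TPM in control. All 16 H4 genes carried the same protein accession, and the 49 tested genes held 44 distinct rows of values. Other copies had unequal values that varied widely among libraries of 1 group. The H3 gene his-13 was at 1.99, 6.12 and 0 TPM in JM03 and at 0.10, 0 and 0 TPM in control, and its neighbour his-9 was at 0 throughout. The H2B gene his-66 was at 3.93, 21.4 and 30.4 TPM in JM03, against 22.5, 12.8 and 59.5 TPM in control. These genes were picked as examples after their values were seen. How reads that map to several copies were shared out by the authors' counting is not stated beyond the tool name, so sums over a class are given beside the single rows.

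The gene models divided the core histone genes sharply. In the WBcel235 annotation 62 of the 69 core genes had a single exon, a transcript of 312 to 411 nt and no annotated UTR. The other 7 had more than 1 exon in at least 1 transcript, an annotated UTR and a length of 429 to 674 nt: his-35 (H2A), his-57 (H2A), his-41 (H2B), his-37 (H4), his-71 and his-72 (H3.3) and his-74 (H3.3-like). Per length, those 7 gave 1179 of the 1761 TPM that all 69 core genes averaged over the 6 libraries. The mean TPM of each ran from 8.35 to 493, with a median of 134, whereas the 62 single-exon genes ran from 0 to 66.0 with a median of 1.73. This division was made after the values had been seen.

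The single-exon core genes, taken as a sum, did not separate JM03 from control. They summed to 507, 582 and 527 TPM in JM03 replicates 1 to 3, against 479, 448 and 952 TPM in control replicates 1 to 3. All JM03 sums lay above control replicates 1 and 2 and below control replicate 3. The log2 ratio of the group means was -0.22 over 6 libraries and 0.22 without control replicate 3, so its sign rested on that library, and quantile normalization of the 6 libraries gave -0.68. No p is given for a sum over members.

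Control replicate 3 was the highest library in every canonical class, and most so for H4. Single-exon H2A summed to 133, 164 and 160 TPM in JM03, against 135, 113 and 230 TPM in control. Single-exon H2B summed to 142, 142 and 145 TPM in JM03, against 121, 107 and 212 TPM in control. Canonical H3 summed to 73.4, 80.9 and 75.6 TPM in JM03, against 61.4, 48.2 and 102 TPM in control. In these classes, and in H4, the JM03 libraries lay closer to each other than the controls did. Against control replicates 1 and 2 alone, the JM03 libraries were the closer group for H2B and H3 but not for H2A or H4. Single-exon H4 summed to 147, 181 and 141 TPM in JM03, against 142, 148 and 379 TPM in control. Control replicate 3 stood at 2.50 times the mean of the 5 other libraries for H4, 1.63 times for H2A, 1.61 times for H2B and 1.498 times for H3.

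Leaving control replicate 3 out, the JM03 sums were above both remaining controls for H2B and H3, and overlapped them for H2A and H4. The log2 ratio of JM03 over control replicates 1 and 2 was 0.33 for H2B, 0.48 for H3, 0.30 for H2A and 0.11 for H4. Gene by gene, 18 of the 49 tested members (36.7%) had all JM03 values above control replicates 1 and 2, against 23.7% of all tested genes, and 5 (10.2%) had all below, against 18.5%. Among the 40 tested single-exon genes 14 were above and 4 below. With copies that share reads, these counts are of rows and not of independent genes.

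**Figure D2:**
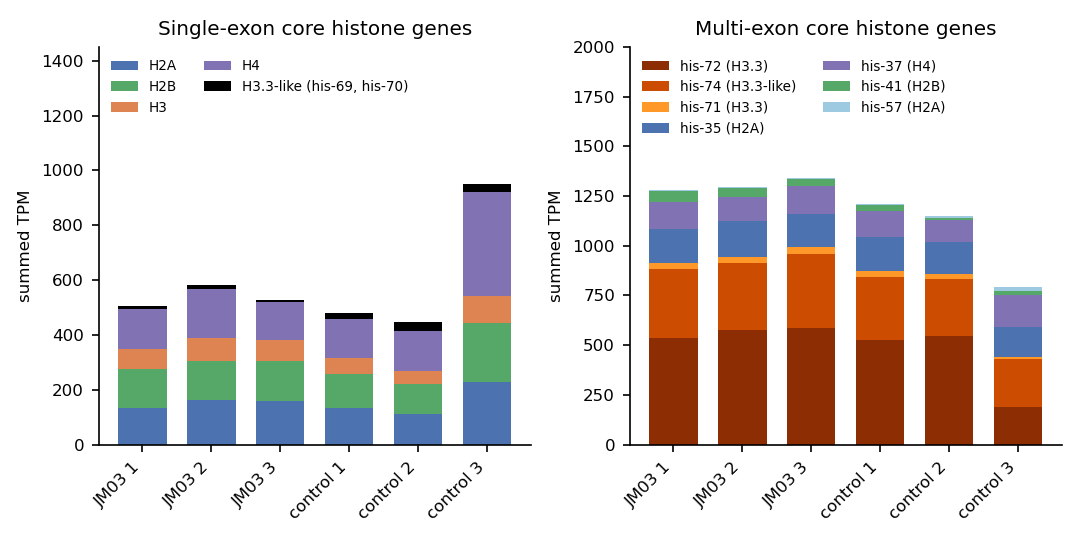
Stacked sums of TPM per library, JM03 left of control, for the 62 single-exon core genes by class (left) and for the 7 multi-exon core genes by gene (right), each axis starting at 0. Control replicate 3 has the tallest single-exon bar, at 952 TPM, and the shortest multi-exon bar, at 795 TPM.

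In control replicate 3 the single-exon sum was the highest of the 6 libraries and the multi-exon sum the lowest. The 7 multi-exon genes summed to 1283, 1295 and 1340 TPM in JM03, against 1209, 1150 and 795 TPM in control. Control replicate 3 was at 0.633 times the mean of the 5 other libraries, while the single-exon sum in it was 1.87 times that mean. Most of that low value lay in his-72, at 190 TPM in control replicate 3, against 527 to 584 TPM in the other libraries. The log2 ratio of the multi-exon sum, JM03 over control, was 0.31, and 0.15 without control replicate 3. All 69 core genes together summed to 1789, 1878 and 1867 TPM in JM03, against 1688, 1598 and 1746 TPM in control, a log2 ratio of 0.14, and 0.17 without control replicate 3. The JM03 sums of all core genes lay above all 3 control sums, by little, and quantile normalization turned the ratio to -0.16.

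Control replicate 3 was the highest of the 6 libraries for 28 of the 49 tested histone genes (57.1%), against the 11.8% of all tested genes, and the lowest for 7 (14.3%), against 64.7%. Among the 40 single-exon genes it was highest for 26 (65.0%) and lowest for 2. Among the 7 multi-exon genes it was highest for 2 and lowest for 4 (57.1%), a share near that of all tested genes. By class, it was highest for 5 of 7 tested single-exon H2A genes, 5 of 9 H2B, 7 of 11 H3 and 9 of 13 H4. Equal rows are counted once per gene here, among them his-10, his-14 and his-26, his-46 and his-56, and his-15 and his-44. The 49 genes held 44 distinct rows of values. The ribosomal RNA share, the level of small RNAs and the short weighted transcript length of this library moved with these values, and their part in them was not tested.

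The linker histone gene his-24 had the largest log2 fold change of the 49 tested members with all 6 libraries. Without control replicate 3 it was below his-41 at 1.28, his-12 at 0.95, his-38 at 0.81, his-3 at 0.79 and his-25 at 0.71. The genes his-3 and his-38 are named only for that order, and his-12 for that order and beside its near copy his-43. The gene his-24 was also below his-41 without JM03 replicate 3, at 1.23 against 1.26. With a pseudocount of 0.1 it was below his-43 at 1.80. It encodes H1.1 and lies on chromosome X at 14490094 to 14491119 (WBcel235), in a model of 2 exons. It was at 52.4, 61.3 and 104 TPM in JM03 replicates 1 to 3, against 42.1, 43.5 and 6.78 TPM in control replicates 1 to 3. All JM03 values lay above all control values, with JM03 replicate 3 and control replicate 3 at the far ends. The mean was 72.5 ± 27.6 TPM in JM03 and 30.8 ± 20.8 TPM in control (SD, n = 3 each), and limma gave a log2 fold change of 1.52 (SE 0.72) with an adjusted p of 0.464. Without control replicate 3 the log2 fold change was 0.68, with an adjusted p of 0.271 in limma. JM03 replicate 3 also had the highest summed TPM of the muscle markers, 492 against 96.6 to 329 in the other libraries, and of the epidermis markers, 130 against at most 40.6. The epidermis sum there was mostly col-19, at 106 TPM, and 2 of the 6 epidermis markers passed the filter. The markers rol-6 and dpy-13 were highest in a control library instead. The part of those tissues in the his-24 value was not tested.

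Of the H2A genes, the highest were his-35 on chromosome V and his-68 on chromosome I. The gene his-35 (9544659 to 9545288, 2 exons) encodes the only H2A among the 17 whose protein accession differs from the rest. It was at 173, 181 and 167 TPM in JM03, against 168, 162 and 151 TPM in control. The groups overlapped, and the log2 fold change was 0.12 (SE 0.21, limma adjusted p = 0.714), or 0.07 without control replicate 3. The intronless his-68 was at 59.4, 74.2 and 69.8 TPM in JM03, against 58.8, 50.5 and 83.2 TPM in control, and its log2 fold change was 0.10 (SE 0.30), or 0.30 without control replicate 3. Its JM03 values all lay above control replicates 1 and 2 and under control replicate 3.

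The remaining named H2A genes were low and varied as much within groups as between them. The gene his-57, which has 3 annotated transcripts, was at 4.94, 6.73 and 2.57 TPM in JM03, against 5.08, 10.6 and 20.2 TPM in control. Its log2 fold change was -1.06 (SE 0.53, limma adjusted p = 0.473), and -0.62 without control replicate 3. The gene his-43 was at 2.46, 4.92 and 3.34 TPM in JM03, against 2.15, 4.58 and 0 TPM in control. Its log2 fold change of 0.78 became 0.09 without control replicate 3, where it was listed at 0. The H2A gene his-12, of the same protein accession and the same cluster on chromosome II, was highest in that library. It was at 4.44, 5.42 and 4.33 TPM in JM03, against 3.18, 1.08 and 20.6 TPM in control. How reads were divided between his-43 and his-12 was not tested, so the value of 0 may not reflect a low level.

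Among the H2B genes, his-41 differed most between the groups. It lies on chromosome V at 9545536 to 9546264, head to head with his-35, has 2 exons, and encodes the protein that the table calls probable H2B 3. It was at 54.9, 42.3 and 37.8 TPM in JM03, against 27.1, 11.5 and 23.4 TPM in control. Every JM03 library was above every control, and control replicate 2, not 3, was the lowest. The means were 44.98 ± 8.87 TPM in JM03 and 20.7 ± 8.13 TPM in control (SD, n = 3 each), and limma gave 1.15 (SE 0.41) as the log2 fold change, at an unadjusted p of 0.0257 and an adjusted p of 0.353. Without control replicate 3 the log2 fold change was 1.28, again short of the threshold at an adjusted p of 0.233. The gene overlaps C50F4.6 on the same strand, so their reads may be shared, and C50F4.6 was at 29.9, 36.7 and 44.6 TPM in JM03, against 40.1, 44.4 and 31.8 TPM in control. C50F4.6 was lowest in JM03 replicate 1, where his-41 was highest, and was at 44.4 TPM in control replicate 2, where his-41 was lowest. In control replicate 3 both were low. How reads were divided between these genes was not tested.

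Of the other tested H2B genes, only his-4 had groups that did not overlap. It was low, at 1.52, 2.14 and 1.74 TPM in JM03, against 1.30, 1.09 and 1.02 TPM in control. Its log2 fold change was 0.39 (SE 0.21, limma adjusted p = 0.478). The 4 genes for H2B 4 (his-48, his-58, his-62 and his-66) carried most of the intronless H2B, with a sum of 121, 125 and 127.7 TPM in JM03, against 104, 95.9 and 186 TPM in control. The gene his-58 was at 52.8, 34.7 and 31.6 TPM in JM03, against 30.4, 34.8 and 33.2 TPM in control. Its groups overlapped, and JM03 replicate 1 stood alone above the rest. In that library his-66, of the same protein accession, was at its lowest, 3.93 TPM, and the sum of the 4 genes did not stand out. How reads were divided between his-58 and his-66 was not tested. The gene his-48 was at 32.3, 36.1 and 35.1 TPM in JM03, against 24.5, 26.95 and 57.8 TPM in control, for a log2 fold change of 0.03 over 6 libraries and 0.41 without control replicate 3. The gene his-54, whose accession differs from the others of its H2B type, was at 1.79, 4.02 and 2.29 TPM in JM03, against 2.97, 2.67 and 2.37 TPM in control.

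Of the H4 genes, his-37 was highest and the most even. It lies on chromosome V at 9547105 to 9547607, next to his-41, has 2 exons and was at 137, 123 and 140 TPM in JM03, against 133, 110 and 160 TPM in control. Its log2 fold change was 0.00 (SE 0.24), or 0.13 without control replicate 3, and the groups overlapped. It overlaps nstp-10 on the opposite strand, and whether counting used strand is not stated, so their reads may be mixed. The intronless his-60 on chromosome IV was at 41.6, 62.8 and 44.0 TPM in JM03, against 42.3, 45.7 and 123 TPM in control. Its log2 fold change was -0.34 (SE 0.47) and 0.14 without control replicate 3. The proteins of his-37 and his-60 have the same accession, so these 2 rows differ in gene model and not in product.

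Of the 72 genes, his-72 and his-74 had the highest mean TPM over the 6 libraries, while the H3.3 gene his-71 was far lower. The gene his-72 (chromosome III, 12367475 to 12369050, H3.3 type 2) was at 538, 575 and 584 TPM in JM03, against 527, 545 and 190 TPM in control. JM03 replicate 1 lay under control replicate 2, so the groups overlapped, and the difference was nearly all in control replicate 3. The log2 fold change was 0.57 (SE 0.42, limma adjusted p = 0.492), and 0.08 without that library. The gene his-71 (chromosome X, 7981382 to 7982070, H3.3 type 1) was at 30.8, 30.7 and 35.6 TPM in JM03, against 30.4, 23.9 and 12.3 TPM in control, and its log2 fold change was 0.61, or 0.25 without control replicate 3. The gene his-74 (chromosome V, 12659704 to 12660330, H3.3-like type 2) was at 344, 337 and 373 TPM in JM03, against 318, 287 and 238 TPM in control. All JM03 values of his-71 and his-74 were above all control values. For his-74 the log2 fold change was 0.33 (SE 0.21, limma adjusted p = 0.490), and 0.22 without control replicate 3.

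The H3.3-like pair his-69 and his-70 was lower in JM03 than in every control, the opposite of his-71 and his-74. These single-exon genes lie next to each other on chromosome III, at 4058360 to 4058743 and 4059715 to 4060119. The gene his-70 was at 9.79, 12.98 and 5.20 TPM in JM03, against 18.2, 29.4 and 25.4 TPM in control. The mean was 9.32 ± 3.91 TPM in JM03 and 24.3 ± 5.66 TPM in control (SD, n = 3 each), a log2 fold change of -1.35 (SE 0.40), an unadjusted p of 0.0129 and an adjusted p of 0.306 in limma. The gene his-69 was at 0.80, 0.82 and 1.14 TPM in JM03, against 1.81, 2.49 and 3.78 TPM in control, and its log2 fold change was -0.91 (SE 0.26, limma adjusted p = 0.306). The highest JM03 value was below the lowest control value for both. In JM03 his-69 reached 1 TPM in replicate 3 alone, so it passed the filter only through the controls.

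The pair was lower in JM03 with or without control replicate 3. Without it the log2 fold change was -1.30 for his-70 and -0.71 for his-69, each with an adjusted p of 0.233 in limma. The pair summed to 10.6, 13.8 and 6.34 TPM in JM03, against 20.01, 31.9 and 29.2 TPM in control, a log2 ratio of -1.40, and -1.34 without control replicate 3. With each library left out in turn the ratio ran from -1.67 to -1.15.

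**Figure D3:**
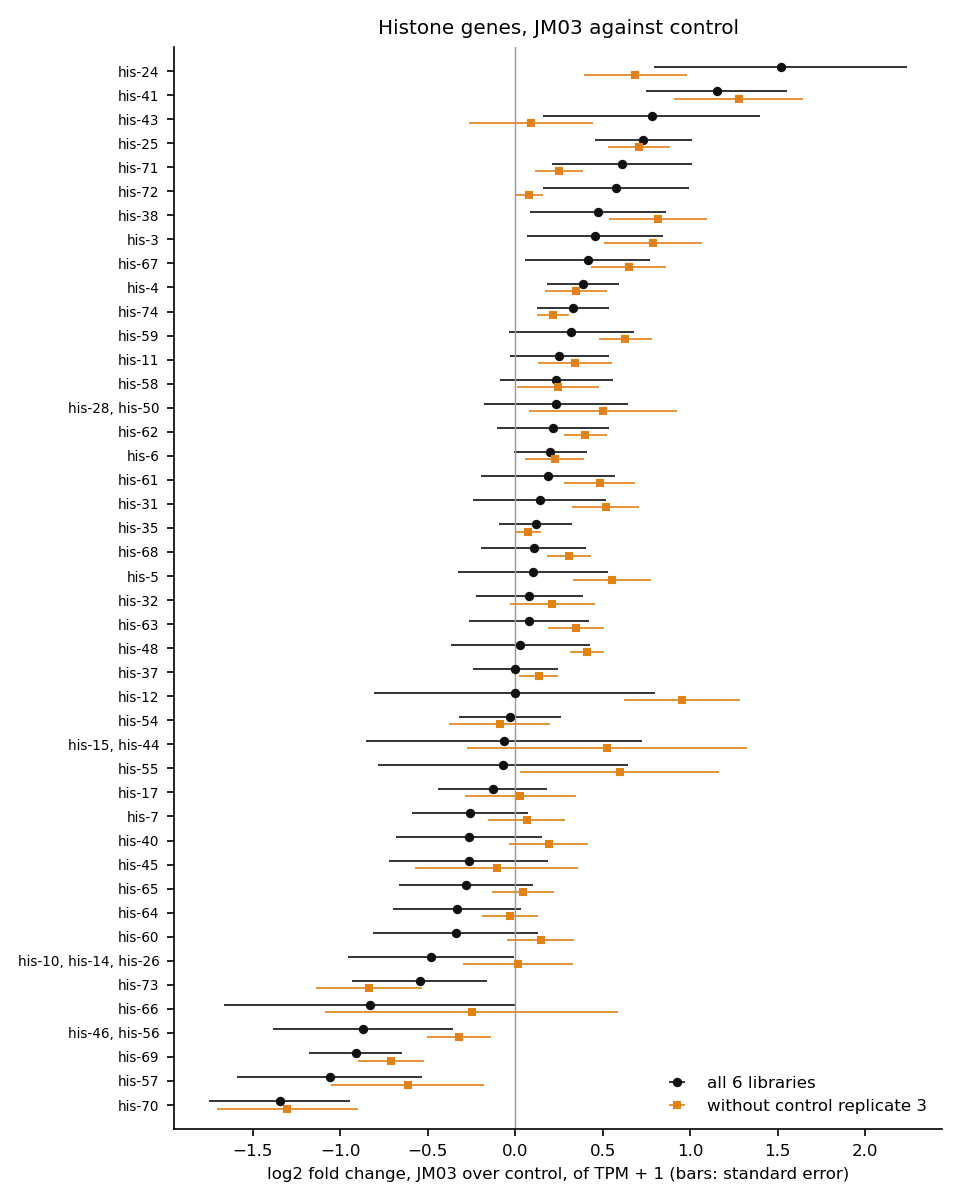
Log2 fold change of TPM + 1, JM03 over control, for the tested histone genes, sorted, with bars of 1 standard error, from all 6 libraries (black) and without control replicate 3 (orange). The lowest row is his-70, at -1.35 with all libraries and -1.30 without control replicate 3, and the highest is his-24, at 1.52 and 0.68.

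Counting only the order of libraries, 6 of the 49 tested members had every JM03 value above every control value, against 21.9% of all tested genes, and 4 had every JM03 value below, against 9.41%. The 6 were his-4, his-24, his-25, his-41, his-71 and his-74, and the 4 were his-46, his-56, his-69 and his-70. The rows of his-46 and his-56 are equal, so they amount to a single measurement. The canonical H3 gene his-25 was at 14.0, 12.7 and 12.7 TPM in JM03, against 8.94, 6.54 and 7.22 TPM in control, and its log2 fold change was 0.73 (SE 0.28, unadjusted p = 0.0331, limma adjusted p = 0.378). The 15 canonical H3 genes share a protein accession, and his-9 in the same cluster was listed at 0, so this row may hold reads of copies. The members his-4, his-25, his-46 and his-56 are named because they fell in these counts, after their values were seen.

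By position, the histone genes fell into 18 loci when genes less than 20 kb apart were joined. Of these, 9 held 4 or more genes and 58 of the 72 members. Chromosome V had 27 members, IV had 22, II had 14, X had 4, III had 3 and I had 2. Head-to-head pairs numbered 31 and took in 62 members: 16 were H2A with H2B, 14 were H3 with H4, and his-67 with his-68 joined H4 and H2A. The gap between the genes of a pair was 227 to 368 bp.

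Signal was not spread evenly over these loci. The 21 single-exon core genes of chromosome IV gave 71.2% of the single-exon core TPM on average, and between 69.2% and 75.4% in each library. The 22 on chromosome V gave 3.84%, the 13 on chromosome II 6.50%, and the 2 on chromosome I 14.5%. Partners in a pair often had unlike levels: per length his-48 averaged 35.4 TPM over the 6 libraries and its partner his-47 averaged 0.10 TPM, while his-61 and his-62 averaged 25.5 and 30.0 TPM. These shares follow the authors' division of reads among copies.

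Control replicate 3 was high at the larger loci of chromosome IV, but not there alone. Its single-exon core sum was 2.02 times the mean of the 5 other libraries on chromosome IV, 2.08 times on X and 1.78 times on II. It was 1.64 times that mean on V and 1.31 times on I. On III, where the single-exon genes are his-69 and his-70, it was 1.76 times that mean, with the JM03 sums low. Against the mean of control replicates 1 and 2 it was 1.12 times there, and below control replicate 2, at 29.2 against 31.9 TPM. The 8-gene locus from his-45 to his-58 summed to 145, 133 and 118 TPM in JM03, against 118, 129 and 279 TPM in control. The 4-gene locus from his-63 to his-66 summed to 84.4, 130 and 121 TPM in JM03, against 114, 99.5 and 231 TPM in control. The 4-gene locus from his-59 to his-62 summed to 116, 132 and 117 TPM in JM03, against 101, 89.9 and 211 TPM in control. Only the last of these had all JM03 sums above control replicates 1 and 2, and in all 3 control replicate 3 was highest. The pair his-69 and his-70 on chromosome III was the one locus of at least 2 genes with all JM03 sums below all control sums.

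**Figure D4:**
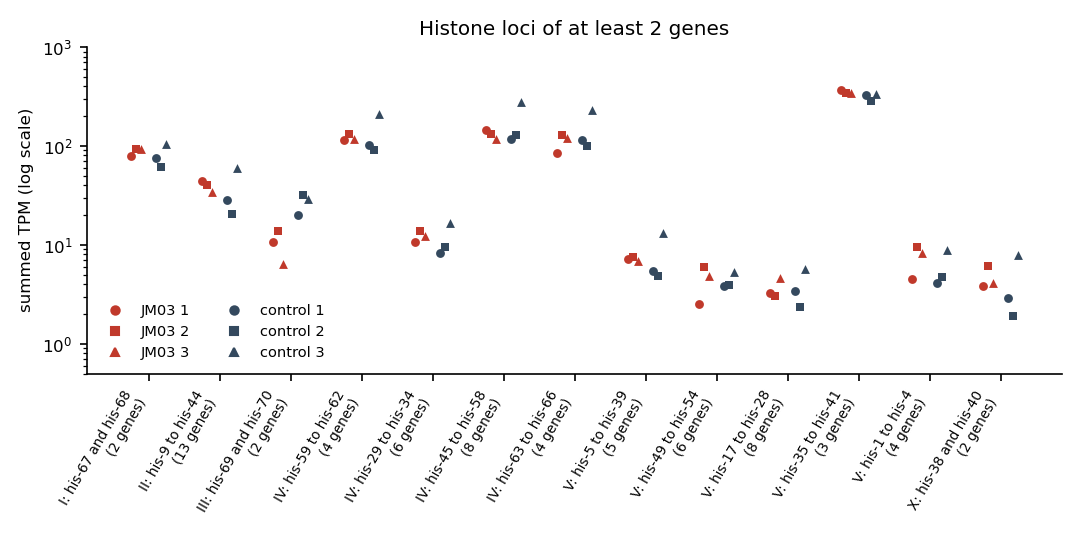
Summed TPM on a log axis for the 13 loci with at least 2 histone genes, a point per library, JM03 left of control. Control replicate 3 (dark triangle) is the top point at most loci, and the locus of his-69 and his-70 is the exception in which the JM03 points lie below all controls.

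Genes for other histones, which have symbols of other kinds, were like the multi-exon genes in their order of libraries. The 12 of them summed to 2512, 2527 and 2586 TPM in JM03, against 2283, 2238 and 1111 TPM in control. Of these 11 were tested, 0 were called by limma, 1 of them was lower and 0 higher at an unadjusted p below 0.05, and the log2 fold change was above 0 in 8 of them (7 without control replicate 3). The gene htz-1, which encodes H2A.Z, was at 956, 1010 and 1038 TPM in JM03, against 884, 838 and 452 TPM in control. The linker histone gene hil-3 was at 27.6, 35.5 and 51.2 TPM in JM03, against 22.1, 23.1 and 5.12 TPM in control, the same extremes as his-24. The gene htas-1, which encodes an H2A variant of sperm, was at 14.6, 29.7 and 13.03 TPM in JM03, against 39.2, 62.9 and 45.7 TPM in control. It had the smallest p of this list, at a log2 fold change of -1.39 (SE 0.41) and an adjusted p of 0.306 in limma, and its JM03 values all lay below the control values. Without control replicate 3 its log2 fold change was -1.42. The genes htz-1 and hil-3 are named after their values were seen.

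Genes that act on histone mRNA and histone proteins showed no called member. The gene cdl-1 encodes the stem-loop binding protein and was at 179, 160 and 183 TPM in JM03, against 162.6, 160.5 and 48.4 TPM in control. The groups overlapped, and the log2 fold change was 0.68 (SE 0.49, limma adjusted p = 0.492), and 0.10 without control replicate 3. Of 5 tested genes of histone mRNA 3' end formation and small RNA control, 5 had a log2 fold change above 0 over 6 libraries and 1 did so without control replicate 3; 0 reached an unadjusted p below 0.05. Of 13 histone chaperone genes 12 were positive, and 3 without that library, with 0 at that unadjusted level. The chaperone gene with the smallest p was rba-1, a homologue of RbAp48, with a highest value of 108 TPM in JM03 and values of 91.1, 94.7 and 38.8 TPM in control, all below every JM03 value (log2 fold change 0.56, SE 0.39, limma adjusted p = 0.490, and 0.15 without control replicate 3).

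The DNA replication list, whose products act in the phase when canonical histones are made, likewise gave 0 calls by limma. At an unadjusted p below 0.05 the count was also 0. The log2 fold change was above 0 in 22 of 23 genes, and its median was 0.71, against 0.35 for all tested genes. Without control replicate 3, 17 were positive and the median was 0.09, against 0.05 for all tested genes. The gene rnr-2, the small subunit of ribonucleotide reductase, had the smallest p: it was at 432, 352 and 459 TPM in JM03, against 339, 287 and 163.4 TPM in control (log2 fold change 0.71, SE 0.31, limma adjusted p = 0.438, and 0.40 without control replicate 3). In control replicate 3 this list and the single-exon histone genes stood at opposite ends, with a list sum of 1582 TPM there, against 2870 to 3279 TPM in the other libraries. That library was the lowest for 64.7% of all tested genes.

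Markers of sperm, like his-69 and his-70, were lower in JM03 than in control. Of 12 sperm markers 11 were tested, all 11 with a negative log2 fold change, at a median of -1.25, and -1.30 without control replicate 3. Limma called 0 of them. At an unadjusted limma p below 0.05, 10 were lower, as were 973 of the 12912 tested genes. Every JM03 value was below every control for 10 of them, against 9.41% of all tested genes. The marker spe-9, which is in each of these counts, reached 1 TPM in control libraries only. It thus passed the filter through the group where it was higher. The 12 summed to 364, 468 and 268 TPM in JM03, against 722, 1206 and 1367 TPM in control. The genes of the major sperm protein, msp, summed to 2783, 4056 and 2015 TPM in JM03, against 5772, 8954 and 12253 TPM in control. In both sums and in htas-1, JM03 replicate 2 was the highest JM03 library and JM03 replicate 3 the lowest, as in his-70, whereas his-69 was highest in JM03 replicate 3. Among the controls both sums were highest in replicate 3, while his-70 and htas-1 were highest in replicate 2. The part of sperm or of male germ cells in the his-69 and his-70 values was not tested.

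**Figure D5:**
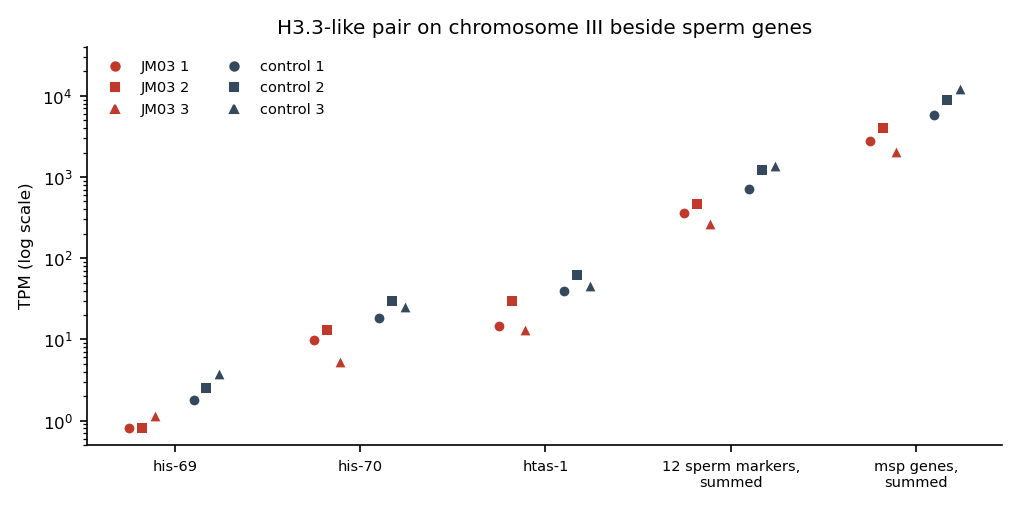
TPM on a log axis for his-69, his-70, the sperm H2A variant gene htas-1, the sum of 12 sperm markers and the sum of the msp genes, a point per library, JM03 left of control. In each of the 5 columns the JM03 points lie below all control points.

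Other tissue lists had a different order of libraries from the canonical histones in control replicate 3. The 13 oocyte markers summed to 11849, 9908 and 11385 TPM in JM03, against 9602, 7687 and 3886 TPM in control, and all 13 had a log2 fold change above 0, with or without control replicate 3. Without that library both the oocyte sums and the single-exon histone sums of JM03 lay above both controls. The 10 markers of the mitotic and meiotic germ line summed to 1358, 1389 and 1384 TPM in JM03, against 1387, 1516 and 469 TPM in control. Their log2 fold change was above 0 in 8 of 10, and in 3 of 10 without control replicate 3. The 10 zygotic genes of the early embryo summed to 2.30 to 7.70 TPM in any library, and 0 of them passed the filter. Single-exon histone sums were thus highest in the library in which germ line, oocyte and replication sums were lowest. That low was not particular to these lists. The intestine, body wall muscle, neuron, histone chaperone and other histone sums were lowest there too, as were 64.7% of all tested genes. The sperm sum was highest there, and the epidermis sum was lowest in control replicate 2.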

How the data were processed

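The authors deposited a table of TPM values, to 2 decimals, for each gene in 6 libraries, 3 JM03 and 3 control by their treatment labels. Per the submitters' processing notes, fastp, HISAT and RSEM were used with build WBcel235; neither their versions nor the strand setting is stated. That the unit is TPM was read from column sums, which are nearly equal. All 72 symbols matched the WBcel235 gene annotation by gene ID, which gave coordinates, exons and UTRs. Genes reaching 1 TPM in 3 or more libraries were tested on log2(TPM + 1) by limma 3.58.1 in R 4.3.3 (mean-dependent, robust prior, no pairing), a step tested on simulated data. The simulated noise followed the spread of the JM03 libraries. It held no library like control replicate 3 and no reads shared among copies, so it does not bear on either. Alternatives were quantile normalization, rescaling over protein-coding genes, filters of none and 5 TPM, a pseudocount of 0.1, a non-robust prior, a replicate block and each library left out. Members, lists and tests were chosen with earlier results of these data known. Genes were named for level in their class, an unlike protein accession, or being among the 3 largest log2 fold changes either way. Figures used matplotlib 3.10.9 in Python 3.11.15.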

Additional observations from a re-analysis of the deposited data

How the results depend on the processing

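No histone gene was called by limma under any of the 13 alternatives. All genes called numbered 17 and fell between 13 and 17 under the scaling, filter, pseudocount and prior settings, and between 5 and 17 with each library left out (8 without control replicate 2, 5, 6 and 10 without JM03 replicates 1, 2 and 3). With the replicate block 0 genes were called. Same-numbered libraries had correlations of -0.02, 0.08 and -0.15 in their deviations from the group means. Deviations from a mean of 3 libraries are bound to each other, and control replicate 3 weighs on those of the controls. Whether the numbers pair the samples therefore cannot be told from these correlations, and the labels do not state it. The core sum had a log2 ratio of 0.14, and -0.16 after quantile normalization. The single-exon sum had -0.22, -0.68 after quantile normalization, and -0.41 to 0.22 with each library left out (0.22 without control replicate 3). The histone median relative to all genes was -0.27, between -0.32 and -0.16 under the other settings, and -0.55 to 0.18 with each library left out.

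For the named genes, 187 alternative values kept their direction and 18 turned it, none past the threshold. After quantile normalization the log2 fold changes were -0.051 for his-35, -0.17 for his-37, -0.23 for his-48, -0.09 for his-58 and -0.13 for his-68. After rescaling they were -0.034 for his-37 and -0.005 for his-48. With each library left out, his-37 ran from -0.13 to 0.13, his-48 from -0.19 to 0.41, his-54 from -0.27 to 0.15, his-60 from -0.61 to 0.14 and his-68 from -0.051 to 0.305. The cause was not tested. Depth is unknown, and members of a few TPM rest on an unknown and possibly small number of reads.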
